A study of Mus musculus with 12 samples.

Results

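Actr3 knockout cells of the mouse kidney line mIMCD3 were compared with and without ciliobrevin D, a small-molecule inhibitor of cytoplasmic dynein. The 6 libraries compared were taken by their column names, 3 treated and 3 untreated, of 12 in the series, and 13579 of the 27179 genes in the table reached a normalized count of at least 10 in at least 3 of the 6 and were tested. All 6 carried the same engineered background, a line labelled Actr3 KO-1 with genotype Actr3 knockout, so the comparison shows the drug only in cells that already lacked normal Actr3. Every culture had 48 h to reach confluence in medium with 10% fetal calf serum, followed by 24 h of serum starvation. Treated cells received 0.5 µM ciliobrevin D in the serum-free medium, and the untreated ones are labelled as control treatment, for which the protocol names solvent. The other 6 libraries came from a wild type control line and from a double knockout, Actr3-Ift88 dKO; these entered the fit only to estimate the spread, and their levels are quoted beside some results. By the sample titles each genotype was represented by 1 line. However, the name of 1 of the 3 control columns gives another line number, so values quoted for the control line may come from more than 1 line. Only 1 dose and 1 time were used. No treated wild type cells were analysed here, so an effect that depends on the knockout cannot be told apart from one that does not. Nothing in the labels ties the 3 libraries of a group to separate cultures, so p-values here cover the spread among these libraries alone and that spread may be technical. In bulk RNA, fewer cells of a type and less RNA per cell cannot be told apart.

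Cytoplasmic dynein 1 is the motor that carries vesicles, organelles, mRNAs and misfolded protein toward microtubule minus ends, with dynactin and cargo adaptors as its partners. Dynein 2 is the related motor that brings intraflagellar transport trains back from the tip of the primary cilium, the antenna in which Hedgehog signalling is organised in kidney epithelial cells. Ciliobrevins inhibit the ATPase of both. ARP3, the Actr3 product, belongs to the Arp2/3 complex, which starts new branches on actin filaments. As further background, HSF1 drives chaperone genes when proteins misfold, NRF2 drives glutathione and thioredoxin genes under oxidative or electrophilic stress, HIF factors drive glycolytic genes when prolyl hydroxylases are inactive, ERK signalling drives immediate early genes and their feedback phosphatases, and interferon drives antiviral genes through STAT and IRF factors.

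The edited gene was examined first. Actr3 (Entrez 74117, chr1:125392905-125435727 in GRCm38) had 1347, 1145 and 1163 normalized counts in the untreated libraries and 1400, 1562 and 1759 in the treated ones, against 8101, 8243 and 8664 in control. All 6 knockout libraries thus sat far below the control line, and the treated ones were slightly above the untreated ones (log2 fold change 0.37 ± 0.07, SE; limma adjusted p = 1.6e-04). Recovered reads ranged from 31425219 to 34977447 in untreated and from 28902562 to 32544817 in treated libraries, and mitochondrial transcripts took 7.90% to 9.49% and 8.30% to 9.33% of reads. Some keratin and kidney epithelial genes (Krt8, Epcam, Pax2, Pax8, Cdh16), chosen after their values were seen, were above 2800 in both groups. The water channel genes Aqp2 (at most 1.20) and Aqp3 (at most 9.63), which define mature collecting duct principal cells, were nearly absent. Of 35 collecting duct and kidney epithelial genes, 7 stayed below 20 in all 6 libraries, Aqp2, Aqp3, Aqp4 and Scnn1b among them. Of 22 markers of other cell types, 18 stayed below 20 in all 6 libraries. The podocyte gene Nphs1, the proximal tubule gene Slc34a1 and the intercalated cell gene Foxi1 were at 0 in all 6. The remaining markers were not silent. The proximal tubule gene Lrp2 ranged from 14319 to 17066 in untreated and from 11799 to 12292 in treated libraries. Another proximal tubule marker ranged from 96.7 to 115 and from 93.3 to 153. The loop and distal tubule gene Umod ranged from 383 to 393 and from 92.2 to 158, and the leukocyte gene Cd68 from 156 to 168 and from 304 to 347. The summed level of all 22 ranged from 15010 to 17760 in untreated and from 12420 to 12980 in treated libraries, mostly from Lrp2.

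Among the treated libraries, replicate 3 stood farthest from the untreated group. It had the highest value of the 3 for 76.1% of the 779 genes at least 2-fold higher, and the lowest for 54.0% of the 448 at least 2-fold lower. Chromosome 5 also stood apart. The median log2 difference over its 846 tested genes was 0.20, 0.24 and 0.24 in the treated libraries, and it was 0.23 to 0.25 in the control and 0.38 to 0.40 in the dKO libraries, so the untreated libraries were the lowest of the 4 groups there. The medians of the other autosomes and X lay between -0.09 and 0.04 in the comparison. On chromosome 5, 53.4% of genes were called higher and 19.0% lower, against 32.3% and 34.9% elsewhere, and the shift ran along its whole length (medians of 0.18 to 0.30 in 5 consecutive bins). Its part in the results was not tested; for most members on chromosome 5 named below, a value with chromosome medians removed is given.

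**Figure D1:**
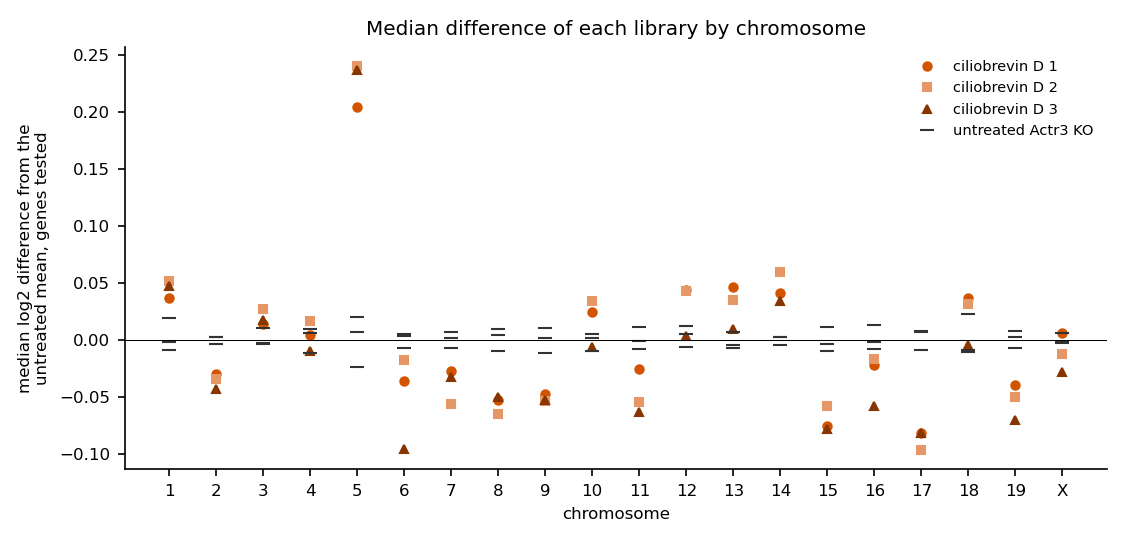
Median log2 difference of each library from the untreated mean (y axis) by chromosome (x axis) over the genes tested; coloured markers are the 3 ciliobrevin D libraries, dashes the 3 untreated ones. The treated libraries stand at 0.20, 0.24 and 0.24 on chromosome 5.

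Treated and untreated libraries differed broadly. Since separate cultures are not known, an effect of the drug cannot be told apart from another difference between the cultures. With limma on log2(value + 1) and Benjamini-Hochberg adjustment, 9064 of 13579 genes (66.8%) were called at an adjusted p under 0.05, 4514 higher (33.2%) and 4550 lower (33.5%). Changes of at least 2-fold were fewer and leaned upward, 779 genes higher (5.74%) and 448 lower (3.30%). For 69.3% of genes the treated and untreated values did not overlap at all, so neither a call nor separated groups singles out a gene here, and sizes are read against the median of all genes, -0.01 on the log2 scale. All fold changes quoted are differences of log2(value + 1), a scale that compresses those of low genes.

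**Figure D2:**
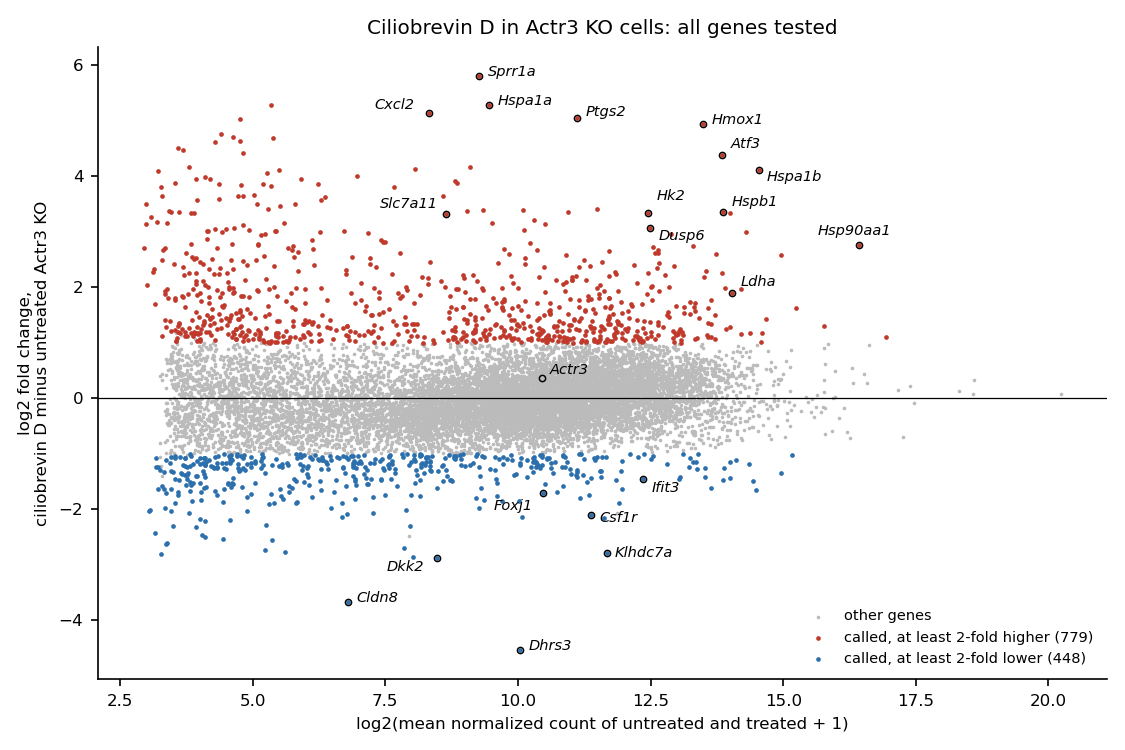
Log2 fold change of ciliobrevin D-treated against untreated Actr3 KO libraries (y axis) by mean normalized count (x axis, log2) for all 13579 genes tested; red and blue points are the 779 and 448 genes called and at least 2-fold higher or lower. The extremes are Sprr1a (5.81) and Dhrs3 (-4.54), and Actr3 sits at 0.37.

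The genes with the highest fold changes came from several functions. Sprr1a, a cornified envelope precursor induced in stressed epithelia, went from 14.9, 25.9 and 22.0 to 981, 1249 and 1413 normalized counts (5.81 ± 0.19, limma adjusted p = 3.2e-16). Ptgs2 (Entrez 19225, chr1:150100031-150108234), the inducible cyclooxygenase of prostaglandin synthesis, went from 109, 115 and 164 to 3262, 4655 and 5056 (5.05 ± 0.14, limma adjusted p = 4.56e-17), close to the control line's 4622 ± 467. Atf3, a stress-induced transcription factor, went from 1105, 1366 and 1608 to 25170, 28450 and 31140 (4.39 ± 0.14), above the control line's 5656 ± 1506. No untreated library came near a treated one for any of the 3. Lag3, an immune checkpoint receptor gene, rose by 4.12 from a mean of 28.4 to 504, and Trim69, a ubiquitin ligase gene, by 3.85 from 9.48 to 140. The small nucleolar RNA entries Snord14e (4.17) and Snord14d (4.01) lie within Hspa8, a chaperone gene that itself rose by 1.30, so their reads cannot be told apart from those of their host.

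Heat shock chaperones rose as a group. Of 25 tested genes in this list, which includes heat shock factor genes such as Hsf1, 23 were called higher and 1 lower. Their median log2 fold change was 1.30 against -0.01 over all genes, and 15 were at least 2-fold higher. Hspa1a and Hspa1b encode the inducible HSP70 and are near-identical copies, so how reads were split between them is uncertain. Together they went from 2395, 2618 and 2892 to 43700, 41320 and 53780 normalized counts, 17.6-fold, against 8723 to 9901 in control. Treated libraries were thus above both untreated and control ones without overlap. Hspb1, the small heat shock protein HSP27, went from 2184, 3040 and 2710 to 21290, 26700 and 33500 (3.35 ± 0.12, limma adjusted p = 7.86e-16). Hsph1, the HSP110 nucleotide exchange factor, went from 2721, 2941 and 3142 to 24510, 28190 and 37050 (3.33 ± 0.09). Both lie on chromosome 5; with chromosome medians removed they stood at 3.13 and 3.11. Hsp90aa1, the stress-inducible HSP90, went from 19680, 24040 and 24000 to 118400, 153400 and 192400 (2.75 ± 0.12), and in all 5 of these genes replicate 3 was the highest treated library. The 1 lower member was the testis-enriched HSP70 relative Hspa2 (-0.36), and the transcript of the regulator Hsf1 was not called (2358 and 2440; 0.05 ± 0.06, limma adjusted p = 0.443).

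The heat shock element is an array of short GAA units in alternating orientation, and its core GAANNTTC was searched on both strands in RefSeq promoters (GRCm38.p6, 250 bases before to 50 after the start). It occurred in 12 of 26 promoters of the tested genes of the chaperone list (46.2%) and in 7.86% of all 32851 promoters. This motif was added after the data had been seen. Only 19 of the 25 tested genes of the chaperone list had a promoter entry. In the lists searched here coverage ran from 23 of 35 ribosomal protein genes to 25 of 26 glycolytic genes, so each motif share leaves out the members without an entry. Each share covers list members whether or not they changed, while the share of all promoters also covers genes that were not tested. Known targets of a factor may hold its motif whatever the treatment did, so these shares say nothing about the drug. The 250 bases before the start are printed 5′ to 3′ for 3 chaperone genes described above that hold a match, with core matches in capitals; the Hspa1a and Hspa1b stretches were identical at 247 of 250 bases and held their match at the same place, 104 bases before the start, and Hspb1 held 2.
Hspa1a (chr17:34972157-34972406, minus strand): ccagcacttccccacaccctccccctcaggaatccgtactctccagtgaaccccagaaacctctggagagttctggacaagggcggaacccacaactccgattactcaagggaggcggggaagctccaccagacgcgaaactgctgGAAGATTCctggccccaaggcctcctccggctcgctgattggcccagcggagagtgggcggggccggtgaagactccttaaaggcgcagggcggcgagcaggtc
Hspa1b (chr17:34959239-34959488, minus strand): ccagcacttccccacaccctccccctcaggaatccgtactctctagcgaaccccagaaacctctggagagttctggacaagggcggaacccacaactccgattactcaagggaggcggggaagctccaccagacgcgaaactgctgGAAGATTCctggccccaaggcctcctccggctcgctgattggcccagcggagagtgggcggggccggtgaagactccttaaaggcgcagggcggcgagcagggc
Hspb1 (chr5:135887669-135887918, plus strand): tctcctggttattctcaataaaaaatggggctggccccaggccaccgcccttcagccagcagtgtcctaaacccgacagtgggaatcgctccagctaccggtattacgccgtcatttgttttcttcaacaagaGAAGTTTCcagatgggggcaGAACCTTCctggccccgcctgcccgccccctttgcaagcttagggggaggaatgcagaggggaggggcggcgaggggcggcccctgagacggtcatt

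A list of NRF2 target genes, which also holds regulators such as the NRF2 gene itself, rose almost without exception. In it, 25 of 26 genes were called higher, none lower, with a median of 0.97. The exception was glutathione reductase, Gsr (0.12 ± 0.06, limma adjusted p = 0.0579; 0.19 and called without treated replicate 3). Hmox1 (Entrez 15368, chr8:75093618-75100593), haem oxygenase, which releases iron from haem, went from 610, 742 and 805 to 20430, 20800 and 25370 normalized counts (4.95 ± 0.12, limma adjusted p = 7.6e-18), with 6232, 9186 and 9133 in control. The treated libraries were therefore above control as well as untreated. Slc7a11, the cystine importer that feeds glutathione synthesis, went from 72.5, 62.1 and 84.2 to 721, 709 and 756 (3.31 ± 0.14), to about the control level of 716 ± 81.6. Gclc, the catalytic subunit of the rate-limiting enzyme of glutathione synthesis, went from 1675, 1947 and 1699 to 10010, 10190 and 12550 (2.62 ± 0.07). Nqo1, a quinone reductase, had only 5.96, 12.4 and 8.62 untreated and 84.2, 81.5 and 90.0 treated (3.16 ± 0.28). Gsta4, a glutathione transferase for lipid aldehydes, went from 20.9, 32.1 and 25.9 to 338, 342 and 449 (3.80 ± 0.18), and its relative Gsta1 from 0 reads in all 3 untreated libraries to 60 reads in the 3 treated ones, at least 23.7-fold higher with the untreated group set at a floor of 3 reads in all. Across the 26 genes the treated values lay above control for 12, below for 9 and overlapped for 5. The antioxidant response core TGACNNNGC, also chosen after the data had been seen, occurred in 11 of 27 promoters of these genes and in 12.4% of all promoters.

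Genes of metal and iron handling rose with them, 12 of 17 higher and 2 lower. The higher ones include Hmox1, which was also counted in the NRF2 list. Tfrc, the transferrin receptor for iron uptake, went from 4498, 5093 and 5624 to 20750, 25170 and 27060 (2.26 ± 0.09, limma adjusted p = 1.13e-14). The ferritin subunits that store iron rose too, Ftl1 from 2305 ± 70.2 to 9326 ± 1233 (2.01 ± 0.07) and Fth1 from 11620 ± 865 to 25920 ± 741 (1.16 ± 0.06); ferritin genes have processed copies, so their counts are less certain. The metal-binding metallothioneins Mt1 (1.12 ± 0.07) and Mt2 (2.17 ± 0.11) rose, from levels that in untreated cells were already above control. Slc11a2, the iron transporter DMT1, fell (-0.57 ± 0.06), as did the iron-responsive aconitase Aco1 (-0.18 ± 0.07; adjusted p = 0.0976 without untreated replicate 3 and 0.0909 without treated replicate 3).

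Glycolytic genes were higher along nearly the whole pathway. Of 26 genes of glycolysis, pyruvate and lactate handling, 20 were called higher and 5 lower, with a median of 1.03. At the entry, Hk2, the inducible hexokinase, went from 909, 995 and 1102 to 8823, 10330 and 11480 normalized counts (3.34 ± 0.09, limma adjusted p = 1.24e-17), with 6254, 7384 and 6687 in control; the constitutive Hk1 rose less (0.78 ± 0.06). The steps between rose by differing amounts, from Aldoc 0.29 (0.26 and 0.25, not called, without untreated or treated replicate 2) to Eno2 2.06, with Pfkl 1.11, Pfkp 1.48, Aldoa 1.17, Tpi1 0.81, Pgk1 1.65, Pgam1 1.45 and Eno1 0.96, while the muscle phosphofructokinase Pfkm fell by 0.44. At the exit, Ldha, the lactate dehydrogenase subunit that favours lactate, went from 7375, 6790 and 7047 to 23380, 27390 and 28850 (1.90 ± 0.07, limma adjusted p = 6.62e-15), whereas Ldhb, the subunit that favours pyruvate, fell from 966 ± 44.6 to 606 ± 10.8 (-0.67 ± 0.06). Slc16a1, a lactate exporter, rose by 1.37. Kinases that inactivate pyruvate dehydrogenase were split, Pdk1 (1.33), Pdk3 (0.44) and Pdk4 (1.91) higher and Pdk2 lower (-1.30), and the mitochondrial pyruvate carrier genes Mpc1 and Mpc2 fell by 0.33 and 0.17, calls that 4 and 9 of 17 alternative settings did not make. Without untreated replicate 1 Mpc1 stood at -0.24 (limma adjusted p = 0.110) and without treated replicate 1 at -0.29 (0.0544); Mpc2 lost its call without untreated replicate 1 or 2 or treated replicate 1 or 3 (-0.11 to -0.16). Gapdh rose by 1.22, but glycolytic genes with many processed pseudogenes (Gapdh, Aldoa, Eno1 and Pkm among them) are uncertain where counting could split reads. The summed level of the 26 genes went from 130400 to 133300 in untreated libraries to 269800 to 301500 in treated ones.

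HIF targets outside glycolysis had a median of 1.39 over 27 tested genes, 18 higher and 3 lower, 77.8% called against 66.8% of all genes. Untreated values were already below the control line for 18 of the 27 and above it for 5. Treated values lay above control for 17, below for 5 and overlapped for 5. Ankrd37 went from 115, 171 and 158 to 1149, 1274 and 1535 (3.16 ± 0.14, limma adjusted p = 5.42e-14), Ddit4, an inhibitor of mTORC1, from 1720 ± 115 to 10500 ± 678 (2.61 ± 0.08), and the collagen lysyl hydroxylase Plod2 from 3801 ± 303 to 23280 ± 4481 (2.60 ± 0.11). Higd1a, a mitochondrial protein of the hypoxic response, rose by 2.67 and adrenomedullin, Adm, from 4.97, 4.14 and 2.87 to 79.4, 87.7 and 84.4 (4.11 ± 0.35). The 3 lower members were endothelin-1, Edn1 (-2.01), stanniocalcin Stc2 (-1.80) and carbonic anhydrase Car12 (-0.20, adjusted p = 0.0634 without untreated replicate 3). Among the oxygen sensors, the prolyl hydroxylase Egln1 went from 1948, 2084 and 2175 to 9487, 10780 and 11190 (2.34 ± 0.06, limma adjusted p = 1.24e-17) and Egln3 from 197 ± 20.9 to 387 ± 12.4 (0.98 ± 0.10), while Egln2, the form not induced by hypoxia, was not called (-0.07 ± 0.05). Hif1a itself differed by 0.28 ± 0.06 (adjusted p = 0.0600 after quantile normalization), and Epas1, which encodes HIF-2α, went from 97.3 ± 8.27 to 353 ± 56.8 (1.84 ± 0.14). The collagen prolyl hydroxylases P4ha1 (1.98) and P4ha2 (2.38) and the histone demethylase Kdm3a (1.67), 2-oxoglutarate enzymes induced in hypoxia, rose as well. Vhl, whose product marks HIF for degradation, rose by 0.45, and the DNA demethylase Tet1 fell from low levels (-1.16 ± 0.29). In all, 15 of 19 oxygen sensing genes were higher and 1 lower (median 0.79). Untreated values were below control for 10 of the 19 and above for 6, and treated values were above it for 15 and below for 2. Culture under low oxygen is not part of the labels, which give the same air mixture for every sample. Nuclear genes of oxidative phosphorylation moved little: 14 of 32 were lower and 4 higher, 56.2% called against 66.8% of all genes. Their median was -0.11, with no change of at least 2-fold. Ndufb8, a complex I subunit, fell by 0.63 and Sdha, of complex II, by 0.42, whereas cytochrome c, Cycs, rose by 0.73.

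The hypoxia response element core was searched in its forms ACGTG and GCGTG on both strands. ACGTG occurred in 69.6% of promoters of the HIF targets, 39.1% of the oxygen sensing genes and 38.5% of the glycolytic genes, and in 19.6% of all promoters; GCGTG occurred in 65.2%, 56.5% and 56.4%, and in 32.4% of all. ACGTG overlaps the E box CACGTG. The 250 bases before the start are shown for 3 glycolytic genes of the entry, middle and end of the pathway, with matches to either form in capitals. Ldha held 3 separate stretches, the nearest 34 bases before the start of the 1 shown of its 2 promoters, and Pgk1 and Hk2 held 2 each.
Ldha (chr7:46845554-46845803, plus strand): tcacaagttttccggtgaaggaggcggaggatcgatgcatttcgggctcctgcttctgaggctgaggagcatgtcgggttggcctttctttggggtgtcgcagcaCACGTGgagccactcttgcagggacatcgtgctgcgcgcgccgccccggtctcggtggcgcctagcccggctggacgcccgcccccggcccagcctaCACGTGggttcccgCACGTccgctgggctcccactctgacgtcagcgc
Pgk1 (chrX:106186850-106187099, plus strand): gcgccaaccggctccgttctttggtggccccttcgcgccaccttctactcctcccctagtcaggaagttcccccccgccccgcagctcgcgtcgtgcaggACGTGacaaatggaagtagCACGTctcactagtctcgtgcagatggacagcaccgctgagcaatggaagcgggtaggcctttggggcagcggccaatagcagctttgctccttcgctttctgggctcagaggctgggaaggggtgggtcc
Hk2 (chr6:82774455-82774704, minus strand): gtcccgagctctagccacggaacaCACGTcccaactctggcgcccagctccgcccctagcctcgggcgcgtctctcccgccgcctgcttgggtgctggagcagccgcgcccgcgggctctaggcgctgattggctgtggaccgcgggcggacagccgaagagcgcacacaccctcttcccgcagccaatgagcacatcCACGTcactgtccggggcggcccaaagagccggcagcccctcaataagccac

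**Figure D3:**
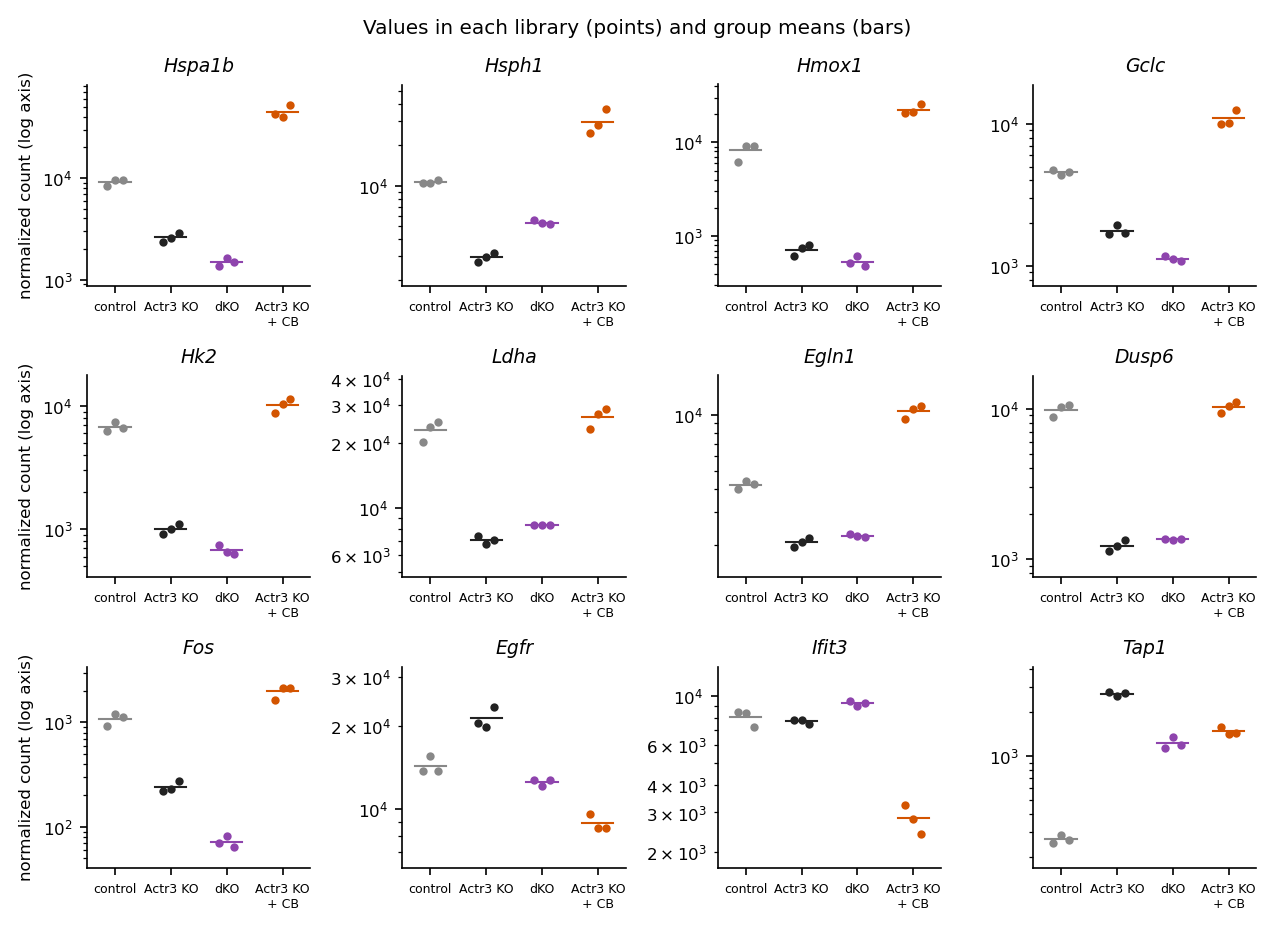
Normalized counts in each of the 12 libraries (points, logarithmic y axis, n = 3 per group) with group means (bars) for 12 genes; CB is ciliobrevin D. Treated libraries lie above untreated ones in the first 9 panels and below them for Egfr, Ifit3 and Tap1; for Ldha and Dusp6 they lie near the control line, for Hspa1b and Egln1 above it.

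Every tested gene of the immediate early list, transcription factors with some other genes such as Zfp36 and Btg2, rose. In it, 33 of 33 were called higher, 25 at least 2-fold, with a median of 1.98. Fos went from 222, 229 and 273 to 1651, 2157 and 2147 normalized counts (3.03 ± 0.12, limma adjusted p = 5.44e-15), Fosb from 57.1 ± 13.8 to 714 ± 93.4 (3.64 ± 0.18), Fosl1 from 55.2 ± 10.7 to 838 ± 102 (3.91 ± 0.14) and their partner Jun from 4189, 4483 and 4843 to 33970, 34040 and 40060 (3.00 ± 0.11). The treated libraries were above the control line for 31 of the 33 genes, although untreated ones had been below it for 30. Nr4a1 (3.20), Klf4 (3.14), Ier3 (2.73), Maff (2.44) and Egr1 (2.30) were among the larger changes, and Srf, whose product activates many of these genes, was the smallest (0.31 ± 0.05). Zfp36, which encodes the mRNA-decay factor tristetraprolin, rose by 2.43.

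Feedback regulators of ERK rose alongside, 19 of 22 higher and 2 lower, with a median of 1.78. Dusp6, the cytoplasmic ERK phosphatase, went from 1125, 1210 and 1328 to 9306, 10420 and 11110 (3.07 ± 0.07, limma adjusted p = 3.54e-18), against 8732, 10290 and 10550 in control. Dusp4, a nuclear counterpart, went from 492 ± 30.7 to 5275 ± 628 (3.41 ± 0.08), and Dusp5, also ERK-selective, from 227 ± 15.8 to 977 ± 43.1 (2.10 ± 0.08). Phosphatases that prefer p38 and JNK rose too, Dusp1 by 2.74, Dusp8 by 2.13, Dusp10 by 2.18 and Dusp16 by 0.90. The ETS factors Etv4 (112 ± 16.6 to 1179 ± 107; 3.39 ± 0.11) and Etv5 (3.02), which report receptor tyrosine kinase signalling, reached or passed control levels, and the receptor pathway inhibitors Spry4 (3.87), Spry2 (1.64), Spred1 (1.19) and Errfi1 (1.27) rose, while Spry1 was not called (-0.10 ± 0.05; called at -0.16 without treated replicate 1). The 2 lower members were Dusp14 (-0.34) and the FGF pathway inhibitor Il17rd (-0.76). An AP-1 site (TGANTCA) was in 3.33% of promoters of the immediate early genes and 5.00% of those of the feedback genes, against 7.81% of all promoters. A cAMP response element (TGACGTCA), which CREB and ATF proteins bind, was in 2 of 30 and 3 of 20, against 1.79% of all, and the ETS core CCGGAA was in 2 of 20 feedback gene promoters against 14.9% of all.

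Receptors of the same pathway moved the other way. Egfr, the epidermal growth factor receptor gene, fell from 20550, 19900 and 23380 to 9585, 8583 and 8591 (-1.25 ± 0.07, limma adjusted p = 7.97e-13), below the control line's 14370 ± 1034. Erbb2 fell by 0.78 and Erbb3 by 0.87, and Adam17, the protease that sheds EGF family ligands, by 0.38. Of the ligands, Areg had 3 reads in the 3 untreated libraries and 119 in the treated ones, a ratio of 47.1 with an exact interval of 15.7 to 232 for counting error only, and Hbegf rose from 2579, 2561 and 2549 to 5542, 5902 and 6416 (1.21 ± 0.08). Btc rose by 0.94; Areg and Btc are on chromosome 5, and with chromosome medians removed Btc stood at 0.72. Tgfa (0.08 ± 0.06), Nrg1 (0.05 ± 0.07) and Egf (-0.23 ± 0.19) were not called.

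Of 23 NF-κB subunit, feedback and target genes, 15 were higher and 6 lower (median 0.71). The inhibitor Nfkbia, itself a rapid NF-κB target, went from 2129, 2077 and 1942 to 4875, 5219 and 6196 (1.40 ± 0.09, limma adjusted p = 2.49e-11), Relt, a TNF receptor family member, rose by 1.35, and the adaptor Traf1 went from 3.97, 6.21 and 1.92 to 51.7, 69.1 and 55.5 (3.66 ± 0.33). Vcam1, the leukocyte adhesion molecule, fell from 146, 186 and 165 to 45.7, 35.8 and 30.0 (-2.14 ± 0.21), and the lymphotoxin genes Lta (-2.29 ± 0.15) and Ltb (-2.08 ± 0.21) fell with it, so the inflammatory genes did not move as one. Among 26 cytokines and growth factors 12 were higher and 6 lower, 69.2% called against 66.8% of all genes, with a median of 0.22. Among the lower ones, Csf1 fell from 12340 ± 754 to 4633 ± 430 (-1.42 ± 0.06). The others were Pdgfb (-0.615), Fgf1 (-0.52), Cx3cl1 (-0.44) and, at low levels, Ccl2 (-1.83) and Tslp (-1.34). The neutrophil chemokines Cxcl2 (9.93, 15.5 and 25.9 to 403, 614 and 845; 5.13 ± 0.26) and Cxcl1 (225 ± 6.56 to 1482 ± 331; 2.69 ± 0.11) and the interferon-inducible Cxcl10 (241 ± 4.04 to 1334 ± 309; 2.44 ± 0.11) are neighbours on chromosome 5. With chromosome medians removed they stood at 4.91, 2.47 and 2.21. Il11 (2.78), Lif (475 to 1343) and Gdf15, a stress cytokine that went from 4442 ± 308 to 14870 ± 972 (1.74 ± 0.08), rose from other chromosomes.

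Interferon-stimulated genes went down. Of 39 effector genes, 36 were called lower and 2 higher, with a median of -0.76. Ifit3, which encodes an RNA-binding antiviral protein, fell from 7805, 7823 and 7491 to 3253, 2808 and 2405 normalized counts (-1.46 ± 0.08, limma adjusted p = 7.97e-13), and with its near copy Ifit3b, from which reads may not be separable, from a mean of 10920 to 4036, against 11630 in control. Ifit1 fell from 362, 311 and 271 to 118, 105 and 92.2 (-1.57 ± 0.12), to the control level of 114 ± 12.7. Oas3, an oligoadenylate synthetase on chromosome 5, fell from 194, 168 and 145 to 97.5, 53.1 and 47.8 (-1.40 ± 0.23, or -1.62 with chromosome medians removed) and Ifi44 from 61.6, 62.1 and 55.5 to 49.3, 22.2 and 14.4 (-1.21 ± 0.39), both still far above the control line (10.6 and 1.78); the first treated library was the highest of its group for both, and without replicate 3 the change of Ifi44 was -0.83 (limma adjusted p = 0.0686). Treated values lay above control for 27 of the 39 genes, below for 5 and overlapped for 7. The 2 higher members were the exonuclease Isg20 (0.64) and the membrane protein Ifitm3 (0.31), and Herc6 was not called. Cxcl10, above, went against the list.

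Genes that sense RNA and relay interferon fell more modestly, 18 of 31 lower and 7 higher (median -0.31). The called share was 80.6% against 66.8% of all genes. The RNA sensors Ddx58 (1378 ± 59.4 to 699 ± 75.5; -0.98 ± 0.08), Ifih1 (-0.63), Dhx58 (-1.07) and Tlr3 (-0.86), their adaptor Mavs (-0.63) and the kinase Ikbke (-0.76) were lower. The transducer genes Stat2 (-0.56 ± 0.06, limma adjusted p = 6.25e-08) and Irf7 (-0.66) were lower as well, and the receptor genes Ifnar1, Ifnar2, Ifngr1 and Ifngr2 fell by 0.35, 0.42, 0.47 and 0.45. On the DNA-sensing side, Cgas rose slightly (0.22 ± 0.06) and Sting1 was not called (-0.10 ± 0.06; called at -0.16 without untreated replicate 1). Members that rose included the suppressors Socs1 (1.03) and Socs3 (0.56), Jak1 (0.87), Stat3 (0.45) and Tbk1 (0.53). In class I antigen presentation, 11 of 17 genes were lower and 1 higher (median -0.37), 70.6% called against 66.8% of all genes. The peptide transporter Tap1 fell from 2759, 2579 and 2713 to 1576, 1423 and 1434 (-0.86 ± 0.07), Tap2 by 0.81 and the immunoproteasome subunit Psmb9 by 1.07, whereas B2m, the shared light chain, rose by 0.48 and the heavy chain genes H2-K1 (0.09 ± 0.08) and H2-D1 (-0.07 ± 0.07) were not called.

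The core of the interferon-stimulated response element, GAAANNGAA, was in 21 of 39 promoters of the effector genes (53.8%), 4 of 16 antigen presentation promoters and 8.56% of all promoters. Both Ifit genes below held it on the strand opposite to the one printed, so the capitals show its reverse complement, Ifit1 in 3 matches of which 2 overlap and Ifit3 in 3 separate ones.
Ifit1 (chr19:34640639-34640888, plus strand): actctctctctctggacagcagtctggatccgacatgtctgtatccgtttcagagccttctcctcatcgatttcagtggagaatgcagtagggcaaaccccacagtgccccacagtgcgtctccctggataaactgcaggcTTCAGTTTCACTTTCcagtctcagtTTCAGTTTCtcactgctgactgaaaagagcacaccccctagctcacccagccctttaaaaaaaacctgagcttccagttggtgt
Ifit3 (chr19:34583279-34583528, plus strand): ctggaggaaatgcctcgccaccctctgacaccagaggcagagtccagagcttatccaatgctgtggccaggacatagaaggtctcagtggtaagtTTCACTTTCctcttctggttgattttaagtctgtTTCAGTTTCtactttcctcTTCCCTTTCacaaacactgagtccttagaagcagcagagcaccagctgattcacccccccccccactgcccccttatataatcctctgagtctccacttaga

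**Figure D4:**
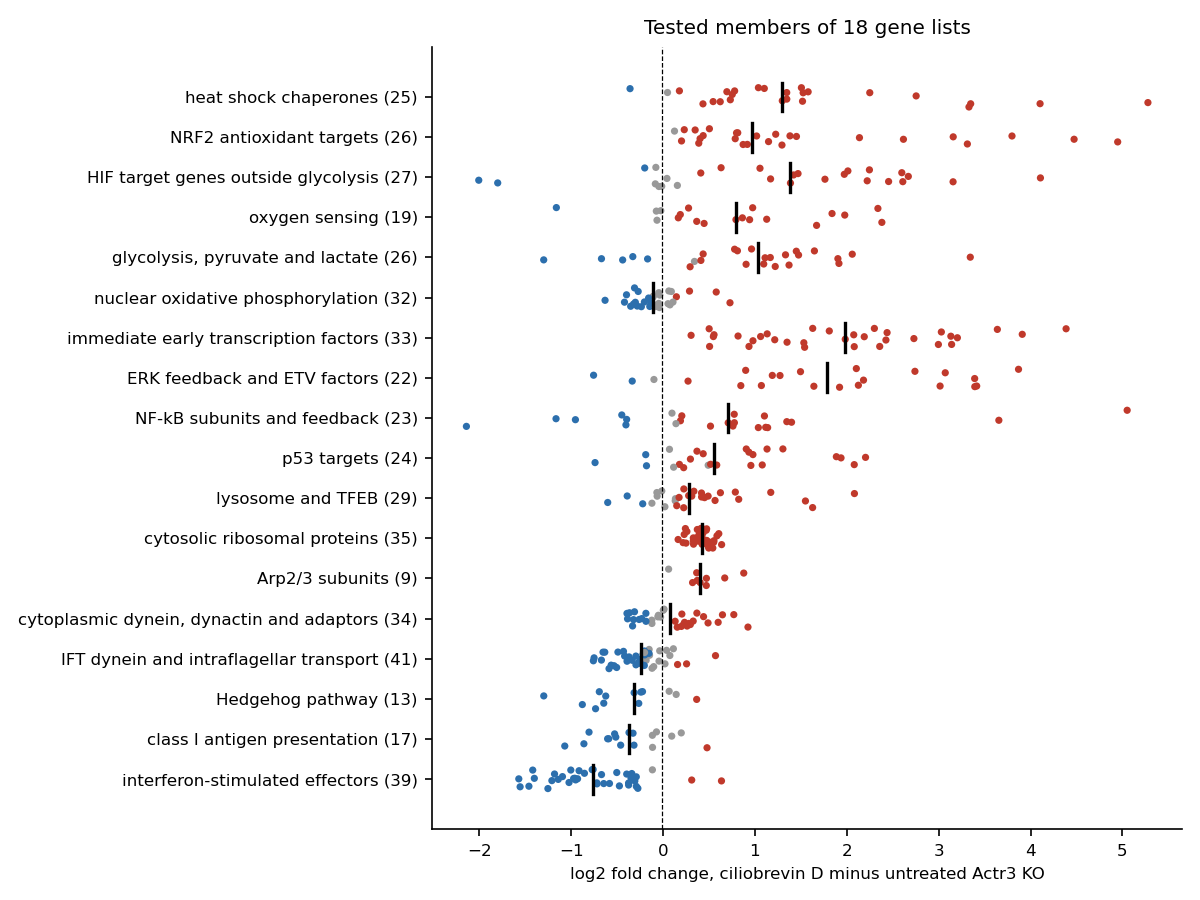
Log2 fold changes (x axis) of the tested members of 18 gene lists (rows, number tested in brackets); red points were called higher, blue lower and grey not called, black bars are list medians and the dashed line is the median of all genes. Medians run from 1.98 for the immediate early list and 1.39 for HIF targets to -0.76 for interferon-stimulated effectors.

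Genes of the drug's target changed little in size. Of 34 cytoplasmic dynein, dynactin and adaptor genes 17 were higher and 10 lower, none by 2-fold, 79.4% called against 66.8% of all genes. Their median was 0.072 and turned to -0.038 after quantile normalization. The motor heavy chain Dync1h1 had 35390, 37970 and 45230 untreated and 36180, 37250 and 35080 treated (-0.12 ± 0.09, limma adjusted p = 0.255), overlapping groups. The light intermediate chains were split, Dync1li1 by 0.28 ± 0.05 and Dync1li2 by -0.19 ± 0.06. The largest rise of the list was in the motor regulator Ndel1, which went from 1581, 1519 and 1473 to 2747, 2815 and 3132 (0.92 ± 0.06, limma adjusted p = 1.12e-11). Pafah1b1, which encodes its partner LIS1, went from 7651, 8106 and 8316 to 11880, 12700 and 13130 (0.65 ± 0.05), while the paralog Nde1 fell (-0.23 ± 0.06). The light chain Dynll1 rose by 0.77 and lies on chromosome 5 (0.55 with chromosome medians removed); Dynll2 rose by 0.26, but by 0.071 and without a call after quantile normalization. Dynactin subunit genes moved in both directions: Dctn1 (-0.26), Dctn3 (-0.31) and Dctn6 (-0.32) were lower, Dctn2 was not called (-0.06 ± 0.05; -0.24 and called after quantile normalization), and higher values were seen for Actr1b 0.20 (0.021 and not called after quantile normalization), Actr10 0.30, Capza1 0.49 and Capza2 0.60. Of the cargo adaptors, Hook1 rose (0.37) and Hook2 (-0.36) and Hook3 (-0.39) fell. Among 19 tubulin genes and partners 10 rose and 6 fell, with Tuba4a (0.83 ± 0.05) and Tubb6 (0.60 ± 0.06) higher and Ttc5, which triggers tubulin mRNA decay, lower (-0.68 ± 0.07).

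Ciliary transport genes were lower by small amounts. Of 41 genes of dynein 2, intraflagellar transport and the BBSome, 26 were called lower and 3 higher, 70.7% called against 66.8% of all genes. Their median was -0.24, with a range of -0.76 to 0.57. Ift88, the second gene named in the dKO label, had 656, 602 and 594 untreated and 443, 438 and 434 treated (-0.49 ± 0.07, limma adjusted p = 3.11e-06), against 471, 441 and 458 in control. The libraries labelled dKO had 633, 573 and 606, overlapping the untreated ones, so a loss of Ift88 did not show in its transcript level there; these libraries entered only the estimate of spread. In IFT-A, the retrograde complex, Ift140 went from 2312, 2282 and 2499 to 1611, 1533 and 1427 (-0.63 ± 0.06), with Ift122 (-0.50) and Wdr19 (-0.59, or -0.81 with the median of its chromosome 5 removed) moving alike; in IFT-B, Ift46 (-0.65) and Ttc30b (-0.76) fell most and Ift57 (0.07), Ift74 (0.02) and Ift43 (0.04), the last an IFT-A member, were not called. The dynein 2 heavy chain Dync2h1 was not called (-0.15 ± 0.10), while its light intermediate chain Dync2li1 fell (-0.53 ± 0.07). Bbs1 and Bbs9, of the membrane-protein cargo adaptor, fell by 0.67 and 0.75. Kif3a, of the anterograde motor, fell by 0.42 and its partner Kif3b was not called (-0.04 ± 0.05). The 3 higher genes were Arl13b, a ciliary membrane GTPase (0.26 ± 0.06), Kif17 (0.57 ± 0.19; 0.45 with adjusted p = 0.0639 without untreated replicate 3) and Ift81 (0.16 ± 0.06), which is on chromosome 5 and with chromosome medians removed stood at -0.063 and was not called. Ift81 also lost its call without untreated replicate 1 (0.12) or treated replicate 2 (0.13). Foxj1, the master regulator of motile cilia, chosen after its values were seen, fell from 2212, 2174 and 2117 to 869, 609 and 555 (-1.70 ± 0.10).

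In the Hedgehog pathway 10 of 13 tested genes were lower and 1 higher (median -0.31). The target and receptor gene Ptch1 fell from 971, 1058 and 1110 to 686, 631 and 622 (-0.69 ± 0.07, limma adjusted p = 1.44e-08). The co-receptors Gas1 (3140 ± 145 to 1279 ± 115; -1.30 ± 0.06) and Cdon (-0.73 ± 0.07) fell as well, and Smo, the transducer, fell by 0.22. Gli3, mainly a repressor, rose (0.37 ± 0.06) and Gli2 was not called (0.07 ± 0.21). Gli1, the standard transcriptional readout, did not reach the level needed for testing, nor did any Hedgehog ligand gene.

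**Figure D5:**
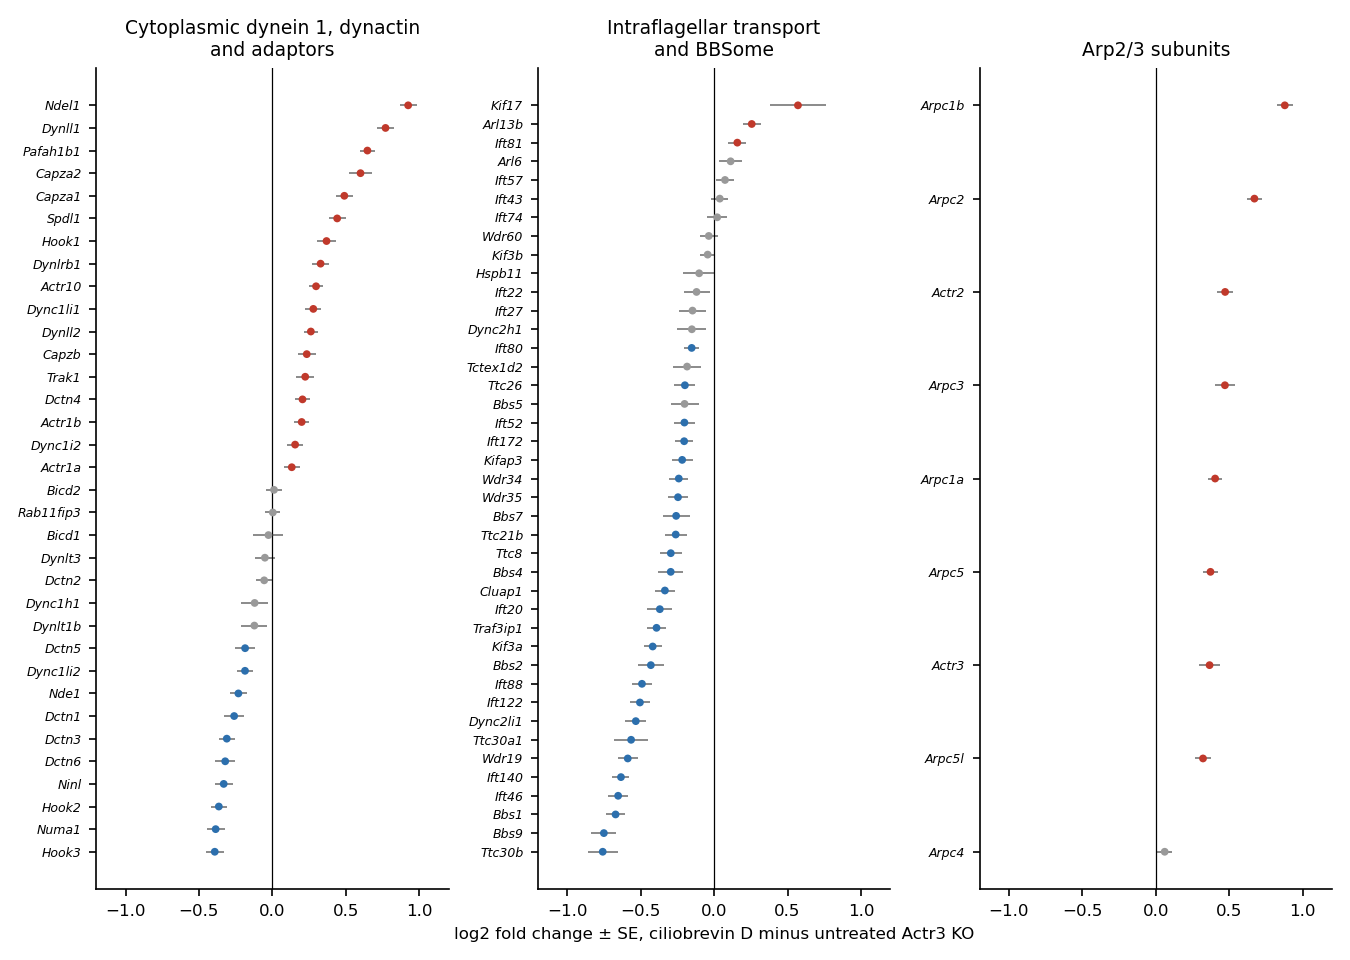
Log2 fold change with its SE (x axis, ciliobrevin D minus untreated Actr3 KO) for every tested member of 3 lists; red genes were called higher, blue lower and grey not called. Dynein and dynactin genes spread from -0.39 to 0.92, ciliary transport genes lie mostly below 0, and all 9 Arp2/3 genes lie above it, 8 of them called.

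Arp2/3 subunit genes rose. Of 9 tested, the edited Actr3 included, 8 were higher and none lower, with a median of 0.40. Arpc1b went from 5595, 5965 and 5529 to 9877, 10960 and 10600 (0.88 ± 0.06, limma adjusted p = 1.29e-11), or 0.66 with chromosome medians removed since it lies on chromosome 5, as do Arpc1a and Arpc3. Arpc2 went from 6319, 6848 and 6404 to 10150, 10640 and 10380 (0.67 ± 0.05) and Actr2, which encodes the ARP2 subunit, from 5869, 5752 and 5784 to 8302, 8277 and 7590 (0.47 ± 0.05). Arpc4 was not called (0.06 ± 0.05). Treated values remained below control for 6 of the 9 genes and were above it only for 1. Other actin genes were divided, 8 of 21 SRF and cytoskeleton genes higher and 7 lower, 71.4% called against 66.8% of all genes. Zyx (0.61), Tagln2 (0.59) and Tpm4 (0.56) rose and vinculin, Vcl, fell from 16210 ± 1412 to 9077 ± 551 (-0.83 ± 0.06).

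Cdh1, which encodes E-cadherin, fell from 12960, 13380 and 15600 to 6775, 6004 and 6055 (-1.15 ± 0.07, limma adjusted p = 3.06e-12), below the control line's 14780 ± 476. The desmosomal cadherins Dsg2 (-1.24 ± 0.07) and Dsc2 (-0.93 ± 0.10) fell too, while the plaque protein gene Pkp1 rose (1.21 ± 0.12). Cldn8, a tight junction claudin of the collecting duct, fell from 243, 188 and 173 to 31.3, 14.8 and 6.66 (-3.67 ± 0.29), Crb2, of the Crumbs polarity complex, from 390, 384 and 425 to 90.2, 58.0 and 42.2 (-2.70 ± 0.17), and Itga2, a collagen receptor integrin, from 454, 454 and 460 to 96.3, 53.1 and 46.6 (-2.86 ± 0.17). Treated replicate 1 was the highest of its group for all 3. The basement membrane genes Col4a1 (-0.87 ± 0.06) and Col4a2 (14320 ± 1390 to 7139 ± 427) fell. Of 22 matrix genes 10 were lower and 4 higher, 63.6% called against 66.8% of all genes, with a median of -0.20. Of 22 genes in a list of YAP and TAZ targets that also holds the genes of YAP and TAZ themselves, 11 were lower and 6 higher. The called share was 77.3% against 66.8% of all genes, and the median -0.18. The largest falls were in Nuak2 (5337, 4748 and 5308 to 1548, 1047 and 936, or -2.16 ± 0.11) and Amotl2 (-1.42 ± 0.07). The targets were divided: Ccn1 fell (-0.69 ± 0.07), Ccn2 (0.51 ± 0.08) and Axl (0.76 ± 0.07) rose, and Ankrd1 was not called (0.11 ± 0.07). The genes of YAP and TAZ were among the higher ones, that of YAP by 0.20 ± 0.05 and Wwtr1, which encodes TAZ, by 0.78 ± 0.05.

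The largest fall of any named gene was in Dhrs3 (Entrez 20148, chr4:144892534-144928209), a retinaldehyde reductase, from 2220, 1923 and 1921 to 161, 61.7 and 63.3 (-4.54 ± 0.21, limma adjusted p = 6.34e-14); the control line had 936, 1003 and 981. Dkk2, a Wnt modulator, fell from 714, 512 and 651 to 105, 75.3 and 73.3 (-2.88 ± 0.23), yet stayed above the control line's 10.0 ± 3.36. Klhdc7a fell from 5673 ± 303 to 844 ± 238 (-2.78 ± 0.11). Csf1r, the macrophage colony-stimulating factor receptor, fell from 4427, 4089 and 4437 to 1194, 1014 and 827 (-2.11 ± 0.09). Lower by about 2 log2 units were also Aoc1, a diamine oxidase (-2.13), the mucin Muc20 (-2.06) and the neuropeptide receptor Npy2r (-1.98).

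Collecting duct genes were divided, 9 of 29 higher and 13 lower, 75.9% called against 66.8% of all genes. Genes for organic osmolytes went both ways. Slc5a3, the inositol importer, went from 2562, 2540 and 2930 to 8806, 10150 and 11840 (1.93 ± 0.08, limma adjusted p = 2.27e-14) and Akr1b3, the aldose reductase that makes sorbitol, from 2762, 3214 and 2723 to 6001, 8056 and 8941 (1.39 ± 0.10), still below the control line's 21430 ± 1244. The taurine importer Slc6a6 fell from 15040 ± 450 to 10560 ± 383 (-0.51 ± 0.05), and the medullary urea transporter Slc14a2 fell from a low level, 21.6 ± 3.21, to 5.44 ± 2.13 (-1.85 ± 0.29). The keratin Krt19 went from 4343 ± 202 to 13620 ± 996 (1.65 ± 0.07) and the transcription factor Gata2 from 36.5 ± 3.70 to 177 ± 24.2 (2.25 ± 0.16). Markers of other nephron segments and of leukocytes were not all still: Umod fell from 387 ± 4.69 to 118 ± 35.0 (-1.75 ± 0.15) and the lysosomal macrophage gene Cd68 rose from 161 ± 6.05 to 332 ± 23.5 (1.04 ± 0.11), while the defining leukocyte gene Ptprc went from 0.99 to 2.07 in untreated to 9.63 to 16.1 in treated libraries and Adgre1 was at most 1.11. The distal tubule gene Slc12a3 ranged from 0 to 4.79 in untreated and from 13.6 to 18.1 in treated libraries. The endothelial gene Pecam1 ranged from 1.91 to 3.97 and from 6.66 to 19.8. Not every low marker rose, as the fibroblast gene Pdgfra ranged from 6.95 to 12.4 and from 4.94 to 7.77. The part of these markers in the results was not tested.

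Translation stress and DNA damage genes rose in part. Of 32 ATF4 and unfolded protein response genes 18 were higher and 5 lower, 71.9% called against 66.8% of all genes. Their median was 0.31, with a range of -0.72 to 3.31. Among the higher ones, Ddit3, which encodes CHOP, went from 1088, 1006 and 1007 to 3119, 3515 and 3976 (1.77 ± 0.07, limma adjusted p = 1.19e-14). Ppp1r15a, the GADD34 phosphatase subunit, went from 1162 ± 38.0 to 4828 ± 486 (2.05 ± 0.08), and Dnajb9 and Trib3 rose by 1.84 and 1.23. Chac1 (0.10 ± 0.10) and Asns (0.08 ± 0.08), of the same list, were not called. Of 24 p53 targets 18 were higher and 3 lower (median 0.55), among them the p53 ubiquitin ligase Mdm2 (2340, 2292 and 2377 to 6799, 9115 and 10410; 1.89 ± 0.09), the death gene Pmaip1 (1.94 ± 0.09) and Plk3 (333 ± 13.1 to 1548 ± 230). Btg2, an antiproliferative gene of this list and of the immediate early list, rose by 2.08. Cell cycle genes were divided, 19 of 37 higher and 8 lower, 73.0% called against 66.8% of all genes, with a median of 0.15. The lower ones included the mitotic genes Plk1 (-0.50), Cenpe (-0.47) and Bub1b (-0.37). Cyclin D1, Ccnd1, went from 102, 82.8 and 107 to 302, 425 and 420 (1.95 ± 0.12), against 1019 ± 31.7 in control, and cyclin E1, Ccne1, rose by 1.08. Lysosomal and autophagy genes were higher in 19 of 29 cases and lower in 3 (median 0.28), 75.9% called against 66.8% of all genes. The autophagy receptor Sqstm1, also an NRF2 target, went from 17890, 19960 and 19120 to 56130, 57380 and 62620 (1.63 ± 0.07), the lysosomal galactosidase Gla from 362 ± 35.9 to 1560 ± 361 (2.08 ± 0.12), Fnip1, a nutrient-sensing regulator of TFEB, by 1.55 and the protease Ctsl by 1.17. The E box CACGTG, which TFEB and MYC family proteins bind, was in 34.5% of the promoters of the lysosomal genes and 7.15% of all promoters.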

How the data were processed

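Polyadenylated RNA was sequenced in 12 libraries. Per the labels' protocols, RNA was isolated with a DNase step and had an RNA quality number of 10.0 in every sample; libraries came from the NEBNext Ultra II RNA kit. The submitters' processing notes name DESeq2 (2.11.40.7), featureCounts (2.0.1), the HISAT2 aligner (2.2.1), the trimmer fastp (0.23.2), mm10 and GRCm38. Options, and whether strand was used, were not given in the sources used here. The deposited values are a signal, normalized counts per Entrez gene without length correction: every column holds whole multiples of 1 step (100% within 0.01 reads), so the reads behind them were recovered by division. Names came from RefSeq GRCm38.p6 for 25275 IDs and GENCODE for 18; 1886 have none. Of the control columns, 1 matches no title, since its name gives a line number that no title has, and it was placed by its control name.

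Testing required a value of 10 or more in 3 or more of the 6 libraries and used limma 3.58.1 on log2(value + 1) (trend, 4 group means, 12 libraries, two-sided, R 4.3.3), with Benjamini-Hochberg adjustment and a threshold of 0.05. Members and gene lists were chosen with earlier results of these data known. Some genes, such as Hmox1, Nqo1, Lif and Srf, stand in more than 1 list and are counted in each. Named genes were Actr3 and Ift88, the 15 highest and 15 lowest called genes whose higher group averaged 100 or more without overlap (predicted, clone-named and unnamed models aside), per list up to 5 called members averaging 50 or more (the 2 of smallest p where none was called), and all members of a few lists; B2m, Bub1b, Car12, Cdh16, Cenpe, Epcam, Foxj1, Gsr, Gsta1, H2-D1, H2-K1, Herc6, Hsf1, Hspa2, Hspa8, Ifitm3, Isg20, Krt8, Pax2, Pax8, Plk1, Slc14a2, Slc6a6 and Stc2 were chosen after their values were seen. Chosen likewise were Ankrd1, Asns, Axl, Ccl2, Ccn1, Ccn2, Chac1, Csf1, Cx3cl1, Fgf1, Pdgfb, Pdgfra, Pecam1, Slc12a3 and Tslp. Means are ± SD (n = 3), fold changes ± SE. Promoters (32851) were from RefSeq GRCm38.p6; a match is a description. The heat shock and antioxidant motifs were added after the data were seen. Among the 17 alternatives were leaving out each of the 6 libraries, removing chromosome medians, a replicate block, a fit of 2 groups, DESeq2 1.42.0 or edgeR 4.0.16 applied to the recovered reads, TMM or quantile scaling, a minimum mean of 50, dropping the filter, and pseudocounts of 0.5 or 5. Counts were simulated for the 13579 genes (200 changed in the treated group, 10 draws), with changed genes drawn only from those with a mean of at least 50. The share of these found by limma was 66.0% for 1.25-fold changes, 94.2% for 1.5-fold, 99.6% for 2-fold and 100% for 4-fold ones, with 7.07% of its calls false. Recovery of changes in lower genes, and scaling with as many changes as in the data, were not tested.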

Additional observations from a re-analysis of the deposited data

How the results depend on the processing

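The count of called genes ranged from 8399 to 9403 over 17 alternatives against 9064, with 45.5% (quantile normalization) to 51.7% (chromosome medians removed) of calls higher against 49.8%. Genes at least 2-fold higher numbered 1227 without the filter, which tests 19360 genes, and genes at least 2-fold lower 291 among the 11764 with a mean of at least 50, against 779 and 448; the other alternatives gave 525 to 859 and 361 to 644. Leaving out 1 library gave 8452 to 8951 calls, and 695 genes at least 2-fold higher without treated replicate 3. The replicate numbers did not pair the samples (correlations of deviations 0.031, 0.095 and -0.025 for equal numbers); with the replicate block 8686 genes were called, 782 at least 2-fold higher and 449 lower. edgeR called 9156 and DESeq2 8867 genes. Of the 17 list medians of at least 0.3 in size, none changed sign.

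Ankrd1, Asns, Axl, Ccl2, Ccn1, Ccn2, Chac1, Csf1, Cx3cl1, Fgf1, Pdgfb, Slc12a3 and Tslp were not followed over the alternatives. Of the 250 called genes that were, 12 lost the call in at least 1 alternative (Aco1, Actr1b, Aldoc, Car12, Dynll2, Hif1a, Ifi44, Ift81, Kif17, Mpc1, Mpc2 and Pax8). Only 1 changed sign: Ift81 stood at -0.063 with chromosome medians removed. A further 12 of the 22 followed but not called gained a call in at least 1. The cause was not tested. Depth limits genes of few reads, such as Areg and Gsta1.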

Other observations

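All 35 tested cytosolic ribosomal protein genes were called higher, by 0.16 to 0.64 on the log2 scale with a median of 0.43, and treated values remained below the control line for 21. Rpl6, on chromosome 5, went from 14350 ± 871 to 22320 ± 1147 normalized counts (0.64 ± 0.06, or 0.42 with chromosome medians removed) and Rps2 from 16460 ± 1106 to 24140 ± 1081 (0.55 ± 0.06). Genes of this family have many processed copies, so counts of single members are uncertain. The ETS core CCGGAA was in 46.4% of their promoters and 14.9% of all promoters.

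Genes of cholesterol synthesis and uptake were lower in 13 of 28 cases and higher in 3, 57.1% called against 66.8% of all genes, with a median of -0.14. Tm7sf2 (-0.56 ± 0.08) and Dhcr7 (-0.53 ± 0.06), late enzymes of the pathway, fell, while Idi1 (0.63 ± 0.10) and the sterol sensor Insig1 (0.58 ± 0.07, or 0.36 with the median of its chromosome 5 removed) rose. A list of aryl hydrocarbon receptor targets that also holds the receptor gene was divided, 3 of 7 higher and 2 lower, the receptor gene among the lower. The called share was 71.4% against 66.8% of all genes. Of the 3 higher members, Nqo1 and the NRF2 gene were also counted in the NRF2 list. Tiparp rose from 1254 ± 2.55 to 2372 ± 88.8 (0.92 ± 0.05). Cyp1b1 was not called (-0.11 ± 0.07, but called at -0.18 without untreated replicate 1), and Cyp1a1 did not reach the level needed for testing. Of the keratin and urothelium genes 11 were tested, 3 higher and 6 lower; Upk3b, an uroplakin on chromosome 5, fell by 0.81 (-1.03 with chromosome medians removed).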
